A study of Mus musculus with 20 samples.

Results

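The genes described here are Atf3, Jun, Junb, Jund, Fos, Fosb, Fosl1 and Fosl2, the ATF3 and activator protein 1 (AP-1) transcription factors of the nerve injury response. The Ensembl identifiers of the count table were mapped to mouse gene symbols without their version, and all 8 genes were found among the table's 78258. RNA was sequenced from lumbar dorsal root ganglia (DRG), which hold the cell bodies of sensory neurons, of 10 male mice. The conditional knockout (cKO) mice were Ahr fl/fl and carried Thy1CRE-ERT2/EYFP, a Cre recombinase under the Thy1 promoter that acts only after tamoxifen, together with a yellow fluorescent protein. Controls were Ahr f/f or f/+, so floxed alleles were present in every animal. The sample titles call the controls wild type, and their library names carry ff without the cre of the cKO libraries. Mice of both genotypes received tamoxifen at 100 mg/kg intraperitoneally on each of 5 days from 17 weeks of age, the sciatic nerve was cut 4 weeks later, and ganglia of levels L4 to L6 were collected 1 day after the cut. Genotype and side defined 4 groups of 5 libraries, and every mouse contributed to both sides. The contralateral ganglia came from operated animals, and ganglia of unoperated mice were not analysed here. Cre under Thy1 acts in neurons that express the transgene, whereas each library holds RNA of all cells of the ganglia.

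AP-1 factors are dimers of basic leucine zipper (bZIP) proteins. Jun proteins can pair with each other, with Fos proteins and with ATF3, whereas Fos proteins need a Jun partner to bind DNA. In sensory neurons whose axon has been cut, Atf3 and Jun are classical markers of the cell-body response, driven in large part through the Jun N-terminal kinase (JNK) pathway, while Fos and Fosb are better known as brief responses to stimulation.

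Promoter sequences from RefSeq on GRCm38.p6 were matched by symbol for 7 of the 8 genes, all but Fosl1. Each window ran from 250 bases before the transcription start to 50 bases after it. It was searched on both strands for 5 motifs: the TPA response element TGANTCA, the cAMP response element TGACGTCA, the variant TGACATCA known from the Jun promoter, the C/EBP-ATF element TGATGNAA, and the CArG box. Atf3 and Jun were the only members with a match. The share of all promoters with a match to any of the 5 motifs was not counted, so no background stands beside this count. The bases before the start are printed 5′ to 3′ on the gene's strand, with the matched letters in capitals. The Atf3 stretch is chr1:191183334-191183583 and the Jun stretch is chr4:95052223-95052472, both on the minus strand.
Atf3: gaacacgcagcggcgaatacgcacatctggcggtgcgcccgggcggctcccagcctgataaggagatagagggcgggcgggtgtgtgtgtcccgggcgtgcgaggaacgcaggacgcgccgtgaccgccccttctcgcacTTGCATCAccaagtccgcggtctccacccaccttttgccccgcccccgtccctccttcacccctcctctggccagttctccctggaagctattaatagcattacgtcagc
Jun: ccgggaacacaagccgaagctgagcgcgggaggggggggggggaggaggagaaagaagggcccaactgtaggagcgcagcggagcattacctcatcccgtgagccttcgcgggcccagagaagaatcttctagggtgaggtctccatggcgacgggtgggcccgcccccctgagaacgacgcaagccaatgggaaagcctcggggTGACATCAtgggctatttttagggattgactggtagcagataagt
The match in Atf3 is the C/EBP-ATF element read on the opposite strand, and its first letter lies 110 bases before the start. The match in Jun begins 45 bases before the start. Over all 32851 promoters of the table, 3.97% held the C/EBP-ATF element and 3.62% held the Jun variant, so such matches are not rare. The TPA response element was present in 7.81% of all promoters, the cAMP response element in 1.79% and the CArG box in 1.63%, and none of these letters occurred in the windows of the 7 members. Only exact letters within the window were searched, so sites farther upstream or with other letters were not looked for.

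Libraries held 76.2 to 118.5 M counts (M, mega), and the members' counts per library ran from 57 to 274 for Fosl1, the lowest, up to 719 to 54515 for Atf3. All 8 members passed the filter on low counts, which left 28564 genes. Ahr, the targeted gene, averaged 24.2 ± 2.10 counts per mega counts (CPM; SD, n = 5) in the contralateral ganglia of controls and 20.4 ± 0.536 in those of cKO mice, and 34.4 ± 2.86 and 31.9 ± 2.94 CPM on the ipsilateral side. Neither genotype difference passed the edgeR test after Benjamini-Hochberg adjustment (log2 fold changes of -0.25, adjusted p 0.103, and -0.11, adjusted p 1). The ganglion label matched its markers: all 15 sensory neuron markers were detected, with summed levels of 10920 to 12820 CPM over the 20 libraries.

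The question of the first comparison was how cutting the nerve changed these factors within 1 day. Atf3, a stress-induced bZIP factor that is nearly silent in intact sensory neurons, had the highest rise of the members. In control mice H62, H63, H65, H96 and H97 the contralateral ganglia had 13.8, 11.6, 9.27, 12.2 and 9.92 CPM, and the ipsilateral ganglia of the same mice had 434.1, 438.1, 429.0, 426.2 and 405.1 CPM. In cKO mice H61, H64, H95, H99 and H100 the contralateral values were 8.46, 9.84, 9.51, 8.67 and 9.71 CPM, and the ipsilateral values were 434.4, 461.8, 439.0, 379.8 and 369.7 CPM. The sides were far apart in every mouse, and the lowest ipsilateral library, that of H100, was still above every contralateral library. The log2 fold change was 5.23 (SE 0.0973, adjusted p 3.23e-18, edgeR quasi-likelihood test) in control mice, a 37.5-fold rise, and 5.50 (SE 0.0991, adjusted p 1.78e-18) in cKO mice, a 45.2-fold rise. This placed Atf3 38th from the highest fold change among the 28564 genes in control mice and 32nd in cKO mice. In bulk ganglia, a change in the number of cells of a type cannot be told apart from a change in RNA per cell. The summed sensory neuron markers were slightly lower on the side of the cut: 11700 to 12730 CPM contralateral and 11380 to 12220 CPM ipsilateral in control mice, and 11500 to 12820 against 10920 to 11640 CPM in cKO mice. Of the 15 markers, 5 were called lower after the cut in control mice (Rbfox3, Scn9a, Scn10a, Isl1 and Pou4f1, by 0.18 to 0.37 on the log2 scale) and 4 in cKO mice (Rbfox3, Calca, Isl1 and Snap25), and none was called higher. Over all genes tested, 16.0% were called lower and 13.8% higher in control mice, and 15.1% and 16.2% in cKO mice. The part of the markers in the rises of the members was not tested.

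Jun, the Jun family member most closely tied to axon regeneration and a main substrate of JNK, rose about 3-fold. The control contralateral ganglia of H62, H63, H65, H96 and H97 had 108.0, 105.5, 98.4, 103.0 and 99.4 CPM, and the ipsilateral ganglia had 296.2, 300.7, 283.4, 295.6 and 285.2 CPM. The cKO contralateral ganglia of H61, H64, H95, H99 and H100 had 90.0, 85.7, 85.8, 94.5 and 90.2 CPM, and the ipsilateral ganglia had 290.2, 308.6, 297.8, 285.4 and 271.6 CPM. The spread within each group was small beside the gap between sides, and no contralateral library reached an ipsilateral one. The fold change was 2.84 in control mice (log2 1.51, SE 0.0368, adjusted p 4.55e-17, edgeR) and 3.26 in cKO mice (log2 1.70, SE 0.0370, adjusted p 4.39e-18). Junos, which lies on the opposite strand and shares 232 exon bases with Jun, rose by 1.36 and 1.56 on the log2 scale. The strand setting of the counting is not given in the sources used here, so reads of Jun and Junos may not be told apart.

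Junb and Jund, the other Jun family members, are often described as weaker activators than Jun, and they rose much less. Junb averaged 35.2 ± 3.92 CPM (range 31.0 to 41.3) in control contralateral and 50.2 ± 2.43 CPM (46.4 to 52.4) in control ipsilateral libraries. In cKO mice it averaged 32.8 ± 2.43 CPM (30.1 to 36.4) and 49.8 ± 2.69 CPM (46.9 to 53.6). The sides did not overlap in either genotype, and the log2 fold changes were 0.51 (SE 0.0642, adjusted p 2.67e-06, edgeR) in control mice and 0.60 (SE 0.0643, adjusted p 2.76e-07) in cKO mice. Jund, which is abundant in resting cells, moved from 107 ± 4.51 to 127 ± 5.25 CPM in control mice and from 114 ± 8.83 to 126 ± 4.70 CPM in cKO mice. The rise was 0.24 on the log2 scale (SE 0.0453, adjusted p 0.000308, edgeR) in control mice, with no overlap between sides. In cKO mice it was 0.15 (SE 0.0452, adjusted p 0.0139), the sides overlapped, and without mouse H99 the adjusted p was 0.0565 (log2 fold change 0.13). Opposite-strand genes share exon bases with both: 173 bases of Prdx2 with Junb and 877 bases of Gm11175 with Jund. Prdx2 was not called (log2 fold changes of 0.04 and -0.07), whereas Gm11175 rose by 0.25 and 0.17, nearly as Jund did.

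Within the Fos family, Fosl2 and Fosl1, the Fos-related antigens, had larger fold changes than Fos itself, and Fosb was not called. Fold changes were not tested between genes. The log2 intervals of 2 SE of Fosl1 and Fos overlapped in control mice (0.820 to 1.355 and 0.27 to 1.04). They also overlapped in cKO mice (0.79 to 1.33 and 0.38 to 1.16). The interval of Fosl2 overlapped that of Fos in cKO mice (1.00 to 1.42) but not in control mice (1.23 to 1.65). Fosl2 (Fra-2) had 19.2, 16.2, 16.3, 15.8 and 19.3 CPM in the control contralateral ganglia of H62, H63, H65, H96 and H97, and 49.3, 49.3, 41.2, 43.3 and 53.0 CPM in their ipsilateral ganglia. In H61, H64, H95, H99 and H100 it had 17.8, 19.9, 22.1, 17.4 and 25.5 CPM contralateral and 44.2, 52.9, 49.0, 40.5 and 51.8 CPM ipsilateral. Each ipsilateral library was above each contralateral library of either genotype. The fold changes were 2.72 in control mice (log2 1.44, SE 0.105, adjusted p 3.31e-09, edgeR) and 2.32 in cKO mice (log2 1.21, SE 0.105, adjusted p 2.92e-08). Fosl1 (Fra-1), a low-level member, ranged from 0.820 to 1.15 CPM contralateral and from 1.86 to 2.64 CPM ipsilateral in control mice. In cKO mice its ranges were 0.708 to 1.08 and 1.60 to 2.30 CPM. Its levels rose 2.12-fold in control mice (log2 1.09, SE 0.134, adjusted p 2.17e-06, edgeR) and 2.08-fold in cKO mice (log2 1.06, SE 0.135, adjusted p 3.40e-06). Ccdc85b, on the opposite strand, shares 1163 exon bases with Fosl1 and fell by 0.24 and 0.26 on the log2 scale, the other way from Fosl1.

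Fos, the classical immediate early gene, rose modestly and with a wide spread. The control contralateral ganglia of H62, H63, H65, H96 and H97 had 6.80, 7.59, 4.61, 7.54 and 4.69 CPM, and the ipsilateral ganglia had 7.08, 13.8, 8.82, 9.82 and 9.66 CPM. The cKO ganglia of H61, H64, H95, H99 and H100 had 3.80, 3.66, 6.52, 3.75 and 4.17 CPM contralateral and 6.42, 6.51, 8.62, 7.96 and 7.86 CPM ipsilateral. Every mouse had more Fos on the side of the cut, yet the groups overlapped, through H62 on the ipsilateral side of control mice and H95 on the contralateral side of cKO mice. The log2 fold change was 0.65 (SE 0.194, adjusted p 0.0150, edgeR) in control and 0.77 (SE 0.196, adjusted p 0.00538) in cKO mice. Without mouse H97 the control value was 0.59 with an adjusted p of 0.0602.

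Fosb was the least uniform member. The control contralateral ganglia of H62, H63, H65, H96 and H97 had 4.16, 2.09, 1.34, 1.41 and 1.43 CPM, against 1.31, 5.09, 1.90, 0.944 and 2.90 CPM ipsilateral. The cKO contralateral ganglia of H61, H64, H95, H99 and H100 had 1.33, 0.976, 2.28, 1.75 and 1.47 CPM, against 1.39, 0.618, 1.87, 2.37 and 2.96 CPM ipsilateral. H62 had the highest control value on the contralateral side and a low one on the ipsilateral side, and 6 of 10 mice had more Fosb on the side of the cut. The log2 fold changes were 0.22 (SE 0.465, adjusted p 0.783, edgeR) and 0.23 (SE 0.472, adjusted p 0.765). The intervals of 2 SE ran from -0.71 to 1.15 and from -0.71 to 1.18, which include both a rise and a fall.

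**Figure D1:**
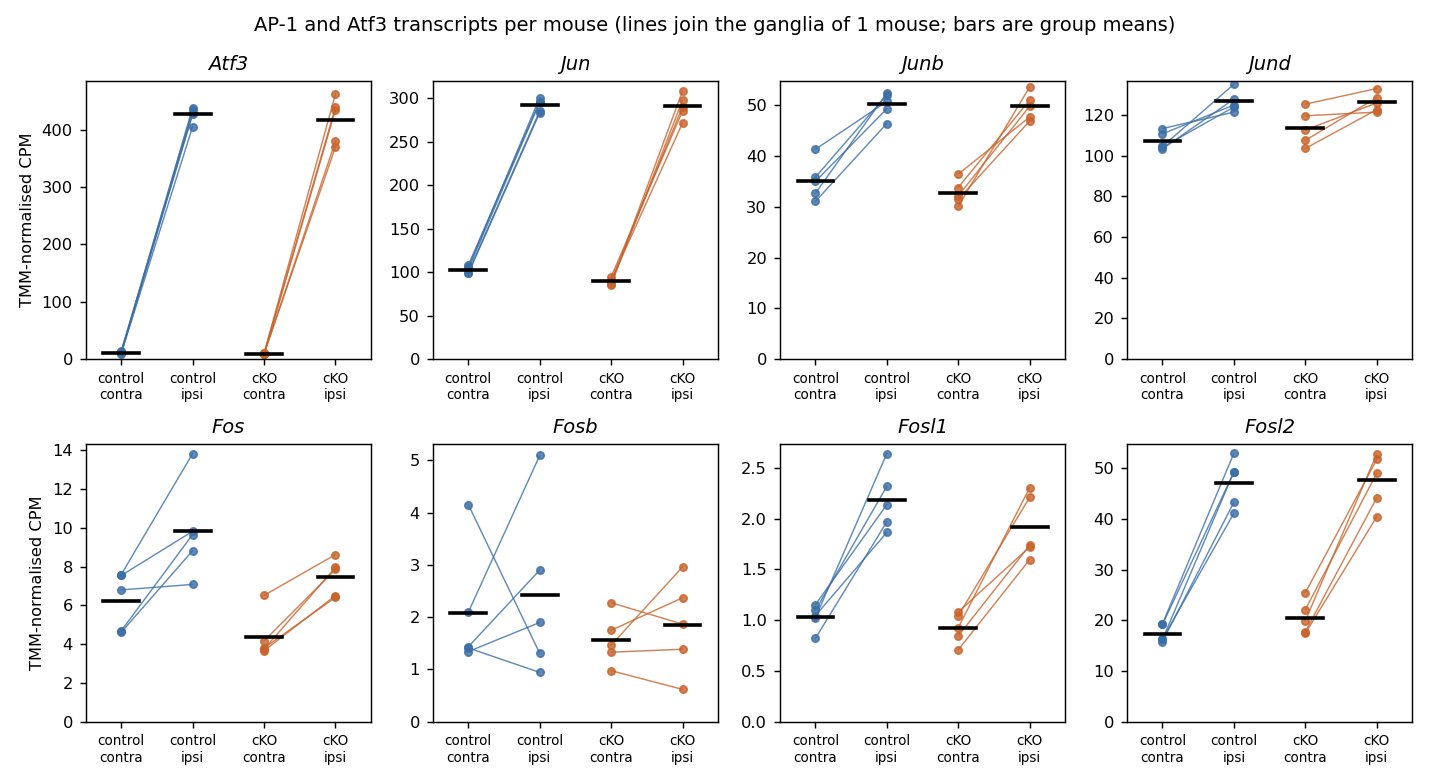
TMM-normalised CPM (linear axis from 0, scaled per gene) of the 8 members by group, with a point per library, lines joining the ganglia of a mouse and bars at the group means. The lines of Atf3, Jun, Junb, Fosl1 and Fosl2 all climb without overlap between sides, while those of Fosb cross.

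In all, 7 of the 8 members rose in control mice and the same 7 rose in cKO mice, each of them higher on the side of the cut in 10 of 10 mice. The share of all genes higher in 10 of 10 mice was not counted. Some of these responses were near 0 on the log2 scale, such as 0.021 for Jund in H95 and 0.059 for Fos in H62. Over all genes tested, 13.8% were called higher and 16.0% lower in control mice, and 16.2% higher and 15.1% lower in cKO mice. The members' median log2 fold change was 0.87 in control and 0.91 in cKO mice, beside medians over all genes of 0.00 and -0.03. The ipsilateral group lay above the contralateral group without overlap for 6 members in control mice, where 11.3% of all genes did so, and for 5 in cKO mice, where 11.9% did so. The order of the fold changes was the same in both genotypes for the leading members: Atf3 first, then Jun, Fosl2 and Fosl1. Fos and Junb followed in both. This order is of point values and was not tested. Of the markers of other cell types, 2 of 7 for satellite glia, 2 of 6 for endothelium, 1 of 9 for macrophages and 1 of 9 for Schwann cells were called higher after the cut in control mice, and 2 of 7 for satellite glia in cKO mice. The satellite glia marker Cadm2 was called lower in both genotypes (-0.41 and -0.30 on the log2 scale), and 1 of 7 fibroblast markers was called lower in cKO mice. The median fibroblast sum was 830 CPM contralateral and 1192 CPM ipsilateral in control mice, against 1715 and 1103 CPM in cKO mice. Fold changes were below 0 for 6 of 7 fibroblast, 5 of 5 erythroid and 7 of 7 muscle markers in cKO mice. In control mice these counts were 0 of 7, 1 of 5 and 2 of 7. Macrophage markers summed to 80.5 to 147 CPM contralateral and 89.9 to 170 CPM ipsilateral in control mice (medians 109 and 146). In cKO mice they summed to 80.6 to 210.2 and 115 to 193 CPM (medians 143 and 119.5), so the median was lower after the cut there. No marker of these lists was at 0, and their part in the rises was not tested.

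**Figure D2:**
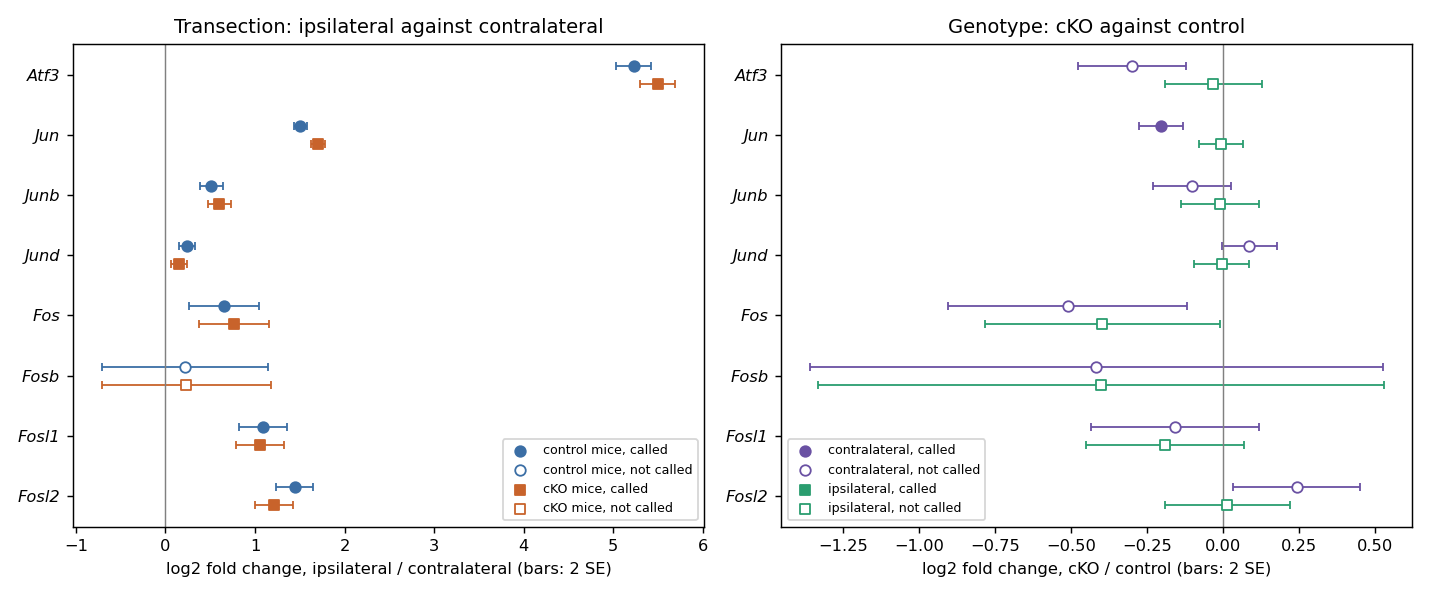
Log2 fold changes of the 8 members after transection (left, by genotype) and between genotypes (right, by side), as points with bars of 2 SE, filled where called. Atf3 stands apart at 5.23 and 5.50 after injury, and in the genotype comparisons the bars of Jun, Atf3, Fos and Fosl2 on the contralateral side and of Fos on the ipsilateral side do not reach 0. Of these genotype differences only that of Jun was called, and the bars carry no adjustment for the number of genes tested.

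To compare levels between genes, CPM were divided by the merged exon length of each gene in kilobases. On the contralateral side Jund was the main transcript of the set, and after the cut Atf3 took its place. In control mice Jund held 64.3 CPM per kb contralateral and Jun 32.2, followed by Junb at 15.3, Atf3 at 5.27, Fos at 2.66, Fosl2 at 1.80, Fosl1 at 0.505 and Fosb at 0.334. On the ipsilateral side of these mice Atf3 had 198 CPM per kb, Jun 91.6, Jund 76.0, Junb 21.8, Fosl2 4.88, Fos 4.18, Fosl1 1.07 and Fosb 0.389. As a share of the sum over the 8 genes, Atf3 went from 4.29% to 49.8% in controls, and in cKO mice from 3.59% to 49.4%. The share of Jund went the other way, from 52.5% to 19.1% and from 57.1% to 19.4%, although its own level was higher after the cut. The share of Jun was 26.0% to 26.7% contralateral and 22.6% to 23.4% ipsilateral in control mice, lower after the cut without overlap, and 21.7% to 25.6% and 22.9% to 24.1% in cKO mice. Some neighbours in this order overlapped in control mice. On the contralateral side these were Fos (1.96 to 3.23 CPM per kb) with Fosl2 (1.64 to 2.00), and Fosl1 (0.404 to 0.567) with Fosb (0.215 to 0.666). On the ipsilateral side the range of Fosl2 (4.25 to 5.48) overlapped that of Fos (3.01 to 5.88).

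The sum over the 8 genes rose 3.25-fold ± 0.0979 (SD, n = 5 mice) in control and 3.29-fold ± 0.265 in cKO mice, from 122 ± 5.16 to 398 ± 7.92 and from 119 ± 6.10 to 391.5 ± 20.7 CPM per kb. Atf3 made up 69.96% ± 1.90 of this rise in control and 69.5% ± 1.62 in cKO mice, and Jun made up 21.6% and 23.2%. The Jun family together went from 112 to 189 CPM per kb in control mice and the Fos family from 5.29 to 10.5. The Fos family thus remained a small part of the set on both sides, at 4.31% contralateral and 2.64% ipsilateral. The shares and the fold of the sum rest on the exon lengths of the GENCODE annotation, while the fold change of each gene does not. The level and share of Jund may also hold reads of opposite-strand Gm11175, which covers 877 of the 1668 exon bases of Jund and had a correlation of 0.96 with it across libraries after group means were removed.

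**Figure D3:**
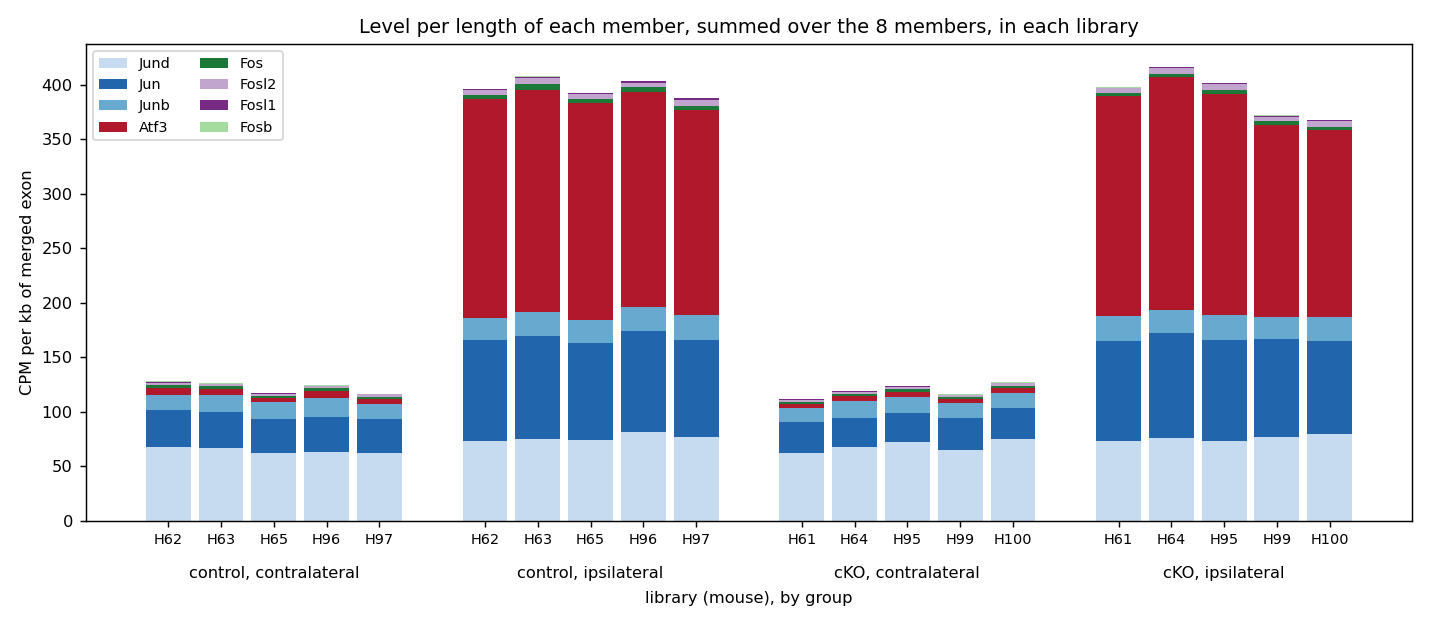
Stacked bars of the CPM per kb of merged exon of each member in each of the 20 libraries, grouped by genotype and side. Jund makes up 50.5% to 59.2% of the contralateral bars and Atf3 46.6% to 51.4% of the much taller ipsilateral bars.

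The second question was whether these factors differed between cKO and control mice. Ahr, the targeted gene, encodes the aryl hydrocarbon receptor. Library names mark Cre in the cKO mice only, so the transgene and the deletion of Ahr cannot be told apart. Away from the lesion, Jun was lower in cKO than in control mice: the 5 cKO libraries (85.7 to 94.5 CPM) all lay below the 5 control libraries (98.4 to 108.0 CPM). The mean was 89.2 ± 3.66 against 103 ± 4.05 CPM (SD, n = 5), a log2 fold change of -0.21 (SE 0.0362, adjusted p 0.0278, edgeR). Jun was the only member called, and 0.0490% of all genes were called lower. Without overlap and lower in cKO mice, as Jun was, were 1.07% of all genes. Within the mice numbered H61 to H65 the difference was -0.24 (2 cKO, 3 control) and within H95 to H100 it was -0.17 (3 cKO, 2 control) on the log2 scale.

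The call of Jun was near the threshold. The adjusted p was 0.0505 with a covariate for the range of mouse numbers and 0.384 with only the contralateral libraries in the fit. It was above 0.05 also without H62 (0.0683), H63 (0.173), H65 (0.0949), H96 (0.103), H97 (0.101), H64 (0.0639), H95 (0.254) or H100 (0.0778), while the log2 fold change stayed between -0.22 and -0.17 over all 17 alternatives. Opposite-strand Junos differed by -0.20 with an adjusted p of 0.0769. Fibroblast markers, all 7 detected and none at 0, had summed levels of 801 to 1376 CPM in control and 914 to 2325 CPM in cKO contralateral libraries (medians 830 and 1715). The medians of erythroid markers (345 and 599 CPM) and neutrophil markers (35.8 and 80.1 CPM) were also higher in cKO mice. Muscle markers summed to 9.82 to 389 CPM in controls, against 6.31 to 1776 CPM with the cKO. The muscle median was lower with the cKO, at 21.4 CPM beside 79.1 CPM in controls. The sensory neuron sums of the same libraries, given above, overlapped, but 12 of the 15 neuron markers had log2 fold changes below 0, among them Scn10a at -0.21 and Scn9a at -0.18, and none was called. The part of these markers in the difference of Jun was not tested.

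The other members were not called on the contralateral side. Atf3 averaged 11.35 ± 1.81 CPM in control and 9.24 ± 0.630 CPM in cKO mice, with a log2 fold change of -0.30 (adjusted p 0.120, edgeR) and an interval of 2 SE from -0.48 to -0.12. Fos averaged 6.25 ± 1.49 and 4.38 ± 1.21 CPM, a log2 fold change of -0.51 (adjusted p 0.193) with an interval from -0.91 to -0.12. Fosl2 leaned the other way, from 17.4 ± 1.73 to 20.5 ± 3.34 CPM (0.24, adjusted p 0.240, interval 0.03 to 0.45). The intervals of Junb (-0.23 to 0.03), Jund (-0.01 to 0.18), Fosl1 (-0.43 to 0.12) and Fosb (-1.36 to 0.53) included 0. Values were below 0 for 6 of the 8 members, and their median was -0.18 beside -0.01 over all genes.

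On the side of the cut no member was called between genotypes, and all 8 adjusted p were 1 (edgeR). Over all genes 0.00700% were called, 2 genes, with 674 at an unadjusted p under 0.05. Atf3 averaged 426.5 ± 12.8 CPM in control and 417 ± 40.04 CPM in cKO mice, with an interval of the log2 difference from -0.19 to 0.13. The spread of Atf3 was wider in cKO mice, where H99 and H100 had the lowest values. Jun averaged 292 ± 7.54 and 291 ± 13.8 CPM, with an interval from -0.08 to 0.06. The corresponding intervals were -0.14 to 0.12 for Junb, -0.09 to 0.09 for Jund, -0.45 to 0.07 for Fosl1, -1.33 to 0.53 for Fosb and -0.19 to 0.22 for Fosl2. Fos averaged 9.84 ± 2.48 and 7.47 ± 0.968 CPM, a log2 difference of -0.40 with an interval from -0.78 to -0.01 and an unadjusted p of 0.0545. Values were below 0 for 7 of the 8 members, and their median was -0.022 beside 0.00022 over all genes.

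The injury response itself was then compared between genotypes by the interaction of genotype and side. No member was called, and 0.00% of all genes were (2799 of them had an unadjusted p under 0.05, edgeR). Jun had the smallest p-value among the members: its response was larger in cKO mice by 0.20 on the log2 scale (SE 0.0510, unadjusted p 0.000908, adjusted p 0.485). The per-mouse log2 responses of Jun were 1.46, 1.51, 1.53, 1.52 and 1.52 in the control mice and 1.69, 1.85, 1.80, 1.60 and 1.59 in the cKO mice, in the order used above, and did not overlap. Over all genes, 0.949% had responses that were higher in cKO mice without overlap. These responses contain the contralateral values behind the difference reported before, so they are not independent of it. Atf3 had an interaction of 0.27 (SE 0.120, adjusted p 0.498), with per-mouse responses of 4.98 to 5.53 in control and 5.25 to 5.68 in cKO mice that overlapped. Fosl2 had -0.23 (adjusted p 0.601), and the adjusted p of the remaining 5 members lay between 0.638 and 0.997.

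Members were also compared across libraries after the group means had been removed, as a description over 20 libraries that share mice, depth and composition. The 5 genes with the highest Pearson correlation to Fos among 13112 were Zfp36 (0.82), Zcchc8 (0.75), Pold2 (0.74), Trim8 (0.72) and Ier2 (0.72). Without the 2 libraries farthest from the median of Fos these values were 0.78, 0.59, 0.67, 0.69 and 0.59. Zfp36 encodes an RNA-binding protein that destabilises mRNA, and Zfp36 and Ier2 are immediate early genes, as Fos is. Over the 15 other immediate early genes tested, the correlation with Fos ranged widely, from -0.11 for Arc and 0.016 for Ier3 to 0.70 for Btg2, 0.72 for Egr1 and 0.82 for Zfp36. The genes closest to Jun were Ptpn4 (0.82), Flrt3 (0.81), Kansl3 (0.80), Src (0.79) and Zswim4 (0.76), and those closest to Atf3 were Nadk (0.84), Fam161a (0.79), Nbeal2 (0.78), Inppl1 (0.78) and Brpf3 (0.76). Without the 2 farthest libraries they ran from 0.66 (Zswim4) to 0.77 (Flrt3) for Jun. For Atf3 they ran from 0.59 (Brpf3) to 0.79 (Nadk). Between members, Atf3 and Jun had a correlation of 0.56 (Spearman 0.46), which was 0.41 without the 2 farthest libraries, and Fos and Fosb had 0.60 (Spearman 0.66), which was 0.47 without them.

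The bZIP relatives that pair with AP-1 proteins or share their sites mostly moved in the same direction as the members. Of 20 such genes, 14 rose and 2 fell in control mice, with a median log2 fold change of 0.34, and 14 rose and 1 fell in cKO mice, with a median of 0.48. Over all genes tested, 13.8% were called higher and 16.0% lower in control mice (median -0.005). The cKO shares were 16.2% higher and 15.1% lower (median -0.030). The highest were Batf3, a Jun partner best known from dendritic cells, at 1.87 (SE 0.237), Cebpd, an inflammatory C/EBP factor, at 1.11 (SE 0.113), and Crem, a cAMP-responsive factor, at 1.08 (SE 0.0683). Their cKO values were 1.48, 1.11 and 1.00, all called. Batf3 was rare, at 0.250 ± 0.0827 CPM contralateral and 0.930 ± 0.181 CPM ipsilateral in control mice, whereas Cebpd went from 14.4 ± 2.21 to 31.0 ± 2.96 CPM. Jdp2, a repressor that binds Jun, was the lowest and fell by 0.21 in control (SE 0.0741, adjusted p 0.0348, edgeR) and by 0.30 in cKO mice.

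Genes upstream of AP-1 showed small changes in both directions. Of 22 kinases, scaffolds and regulators, 5 rose and 6 fell in control mice (median -0.06), and 6 rose and 4 fell in cKO mice (median -0.04). Of all genes tested, 13.8% were called higher and 16.0% lower in control mice (median -0.005). In cKO mice 16.2% were called higher and 15.1% lower (median -0.030). The highest were Elk3, a partner of serum response factor, at 0.46, Mapk14, the p38 alpha kinase, at 0.35, and Men1, which encodes the JunD-binding protein menin, at 0.35, and each was called in cKO mice too. The lowest was Map3k13, the leucine zipper-bearing kinase LZK, which fell by 0.31 in control mice (SE 0.0724, adjusted p 0.00253, edgeR) and had -0.10 in cKO mice (adjusted p 0.322). Map3k12, the axon injury kinase DLK, was singled out after its values were seen: it fell by 0.16 and by 0.09 on the log2 scale, from 122.5 ± 3.87 to 109 ± 1.78 CPM in control mice. The changes of these genes in mRNA say nothing of the activity of the kinases, which was not measured.

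Textbook targets of AP-1 or ATF3 rose or were not called, and none fell. Of 16 targets, 10 rose in control mice (median 0.79) and 12 in cKO mice (median 0.88). Among all genes, 13.8% and 16.2% were called higher and 16.0% and 15.1% lower, with medians of -0.005 and -0.030. Sprr1a, a regeneration-associated gene, went from 0.577 ± 0.329 to 23.6 ± 3.66 CPM in control mice (log2 5.32, SE 0.336, adjusted p 1.42e-09, edgeR) and rose by 5.35 in cKO mice. Il6, a cytokine, rose by 3.33 from 0.217 ± 0.0699 CPM, and Plaur, the urokinase receptor, rose by 2.64 from 8.45 ± 0.814 to 52.8 ± 3.75 CPM. The lowest target, Mmp3, was at 0.477 CPM or less in every library and was not called (0.01, adjusted p 0.995). Mmp13, singled out after its values were seen, had log2 fold changes of 1.54 in control and -3.64 in cKO mice, neither called (adjusted p 0.447 and 0.0889), and ranged from 0 to 13.9 CPM between control ipsilateral libraries alone. Of 16 other immediate early genes, Npas4 did not pass the filter, 9 rose in control mice (median 0.49) and 7 in cKO mice (median 0.48), and none fell. The shares and medians over all genes given for the targets apply here too. Arc, a synaptic regulator, rose by 1.12, Dusp1, a phosphatase of MAP kinases, by 1.09, and Btg2, an antiproliferative gene, by 1.03 on the log2 scale in control mice, and all rose in cKO mice as well. Egr4 was the lowest, at 0.12 (adjusted p 0.781). No gene of these 4 lists was called between genotypes on either side or in the interaction. Among all genes, 0.0735% were called contralateral, 0.00700% ipsilateral and 0.00% in the interaction.

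**Figure D4:**
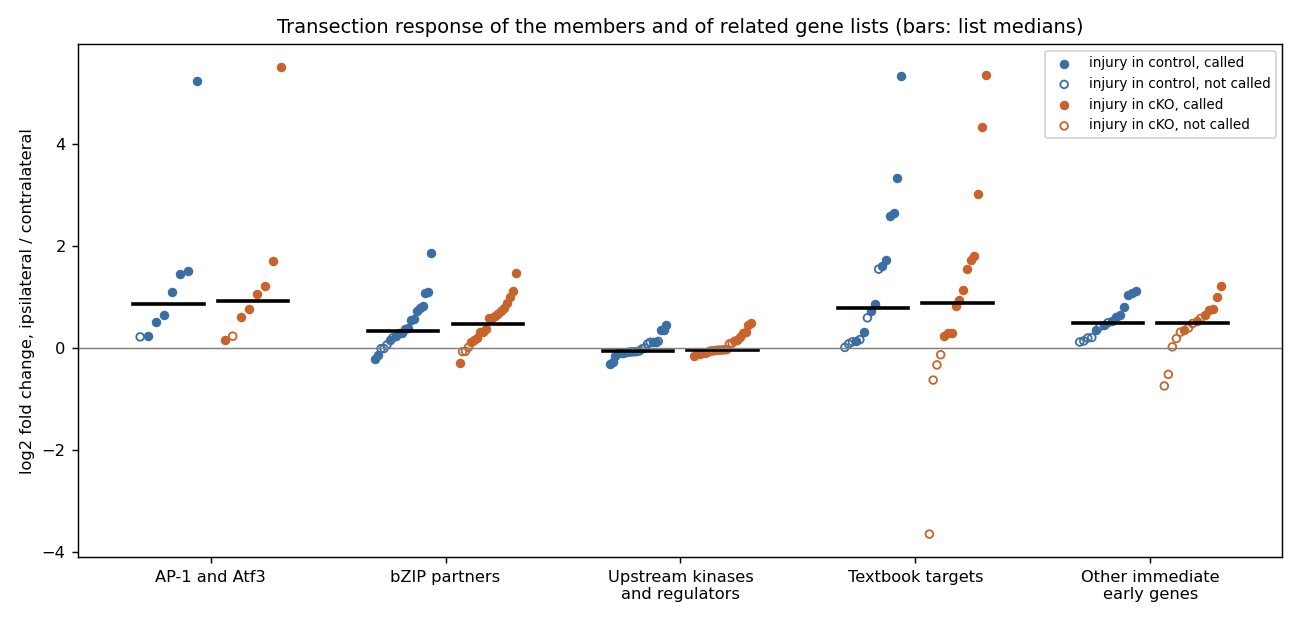
Log2 fold changes after injury of the members and of the 4 related gene lists in control and cKO mice, with a point per gene, filled where called, and a bar at the list's median. The targets reach up to Sprr1a at 5.32 and 5.35, while the upstream genes lie close to 0 with medians of -0.06 and -0.04.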

How the data were processed

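The deposited table holds whole-number counts per gene and library; its values are not normalised. Per the submitters' processing notes, HISAT2, Picard and the builds mm10 and mm39 were named, without roles; the counting program, annotation and strand setting are not given in the sources used here. The deposited FPKM table was not used. A spinal cord injury named in a characteristics field contradicts the protocol, which describes cutting the sciatic nerve and was followed. A mouse number shortened in a sample title was read from the library name (H61). Symbols and merged exon lengths came from GENCODE M21; 51487 identifiers had a symbol and held 98.1% of the counts.

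Counts were analysed with edgeR 4.0.16 in R 4.3.3 (TMM, filterByExpr with a minimum count of 10 and total of 15, robust quasi-likelihood F-test); all 20 libraries entered 1 fit with a mean per group. Benjamini-Hochberg adjustment ran over 28564 genes in each of 5 comparisons, and genes were called under 0.05. SE is the absolute log2 fold change divided by the root of F. Per-mouse responses and correlations used log2 CPM with a prior count of 2, and the search for the genes most correlated with a member was limited to those averaging 5 CPM or more. Alternatives were RLE size factors, DESeq2 1.42.0, limma-voom (limma 3.58.1) with mouse as a random effect, dropping the filter or asking for a mean CPM of 1 instead, a mouse block, only the libraries compared, a covariate for the range of mouse numbers, and each of 10 mice left out. The code was tested on simulated data.

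Replicates were separate mice, and all 40 pairs of libraries within groups varied beyond counting error (chi-square per degree of freedom 5.14 to 56.0), so the spread between mice adds to counting error. For Fosl1 (57 to 274 counts per library) and Fosb (73 to 396) depth also limits the precision. Both libraries of a mouse come from the same animal: their deviations from the group means had a median correlation of 0.186 (-0.0546 to 0.361). The members, lists and tests were chosen with earlier results of these data known. All members are named; from each related list, the 3 genes with the highest and the 1 with the lowest log2 fold change after injury in control mice, and any gene called between genotypes, and for Atf3, Jun and Fos the 5 genes most correlated with each.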

Additional observations from a re-analysis of the deposited data

Results flagged for a closer look

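In each group of 5 mice, the gap of the highest or lowest value to its neighbour was divided by the range of the group. This ratio exceeded the critical value of 0.71 in 3 of 48 groups (32 of levels and 16 of responses), where chance gives about 1 group in 20, or 2.4. The Fos level of H95 was the highest of the cKO contralateral libraries, at 6.52 CPM beside 3.66 to 4.17 CPM in the others (ratio 0.822). The Fosb level of H62 was the highest of the control contralateral libraries, at 4.16 CPM beside 1.34 to 2.09 CPM (ratio 0.733). The Jun response of H62 was the lowest of the control mice, at 1.46 beside 1.51 to 1.53 on the log2 scale (ratio 0.786). No member's response differed between genotypes by the interaction test after adjustment.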

How the results depend on the processing

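Over 18 alternatives, 654 of 696 member values kept their direction and their side of the threshold, 12 lost a call, 1 gained a call, and 29 changed sign, none of which had been called. The 7 rises after injury were called in every alternative in both genotypes, except Fos in control mice without H97 and Jund in cKO mice without H99. With the replicate block (mouse as a fixed term), 8559 genes were called in control and 9015 in cKO mice, beside 8540 and 8939 without it, and the same 7 members; the block changed no call of a member.

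The contralateral genotype comparison depended most on the setting. Its 21 called genes (7 higher, 14 lower) became 1041 with DESeq2 (667 higher, 374 lower), 50 without a filter, 45 when a mean CPM of 1 was required and 2 with only the libraries compared. Leaving out a mouse gave from 4 (without H95) to 3326 (without H99). The members called there, 1 in the reported fit, were 2 with DESeq2 (Jun, and Atf3 at -0.29, adjusted p 0.0304), 0 with only the libraries compared, 0 with the range covariate, and 0 to 1 without a mouse; the adjusted p of Atf3 ran from 0.0304 to 0.384. The interaction had 0 genes called, 11 with DESeq2 and 0 to 43 (without H99) with a mouse left out. The causes were not tested.

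Values near 0 changed sign when a mouse was left out, as did that of Fosb between genotypes on the ipsilateral side (-0.40 in the reported fit). For Fosb the log2 fold change ran from -0.22 (without H63) to 0.79 after injury in control mice, from -0.024 to 0.41 in cKO mice, from -0.64 to 0.055 between genotypes on the ipsilateral side, and from -0.56 to 0.46 for the interaction, which was -0.062 with limma-voom and -0.0056 with the replicate block. Between genotypes on the ipsilateral side the ranges were -0.072 to 0.0075 for Atf3, -0.029 to 0.016 for Jun, -0.039 to 0.011 for Junb, -0.024 to 0.019 for Jund and -0.026 to 0.068 for Fosl2. For the interaction they were -0.015 to 0.23 for Fos and -0.11 to 0.068 for Fosl1.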
